A study of Danio rerio with 4 samples.

Results

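The change in RNA that an embryo undergoes between 0 and 6 hours post fertilisation (hpf) was compared between wild-type zebrafish (WT) and maternal ybx1 mutants (Mybx1). For each gene the change from 0 to 6 hpf in Mybx1 minus the change in WT was taken on log2(FPKM + 1), FPKM being fragments per kilobase of gene scaled to library size. A positive difference of stage changes marks a gene whose level went down less or up more in Mybx1, and a negative one the opposite. It was computed for the 15376 of 31870 gene identifiers with a mean FPKM of at least 1 over the 4 libraries. The groups were WT at 0 hpf, WT at 6 hpf, Mybx1 at 0 hpf and Mybx1 at 6 hpf, with 1 library of total RNA depleted of ribosomal RNA in each. The sources used here do not give the ybx1 allele, the embryos' own genotype or how many embryos went into a library. With 1 library a group there is no replicate error, no test and no p-value: each value compares libraries, and intervals cover counting error only.

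Ybx1 is a cold-shock domain protein that coats stored mRNA and represses its translation, and the egg's supply of it comes from the mother. A fish embryo starts on RNA laid down in the egg, clears much of it after fertilisation, and switches on its own genome at the blastula stage. Pou5f3, Nanog and Sox19b open that genome, Nodal and BMP signals then pattern its germ layers, and an outer epithelium and a yolk syncytial layer differentiate around the blastoderm. At 6 hpf a WT embryo is at the start of gastrulation.

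The libraries matched their genotype labels in the gene that carries the mutation, and the WT libraries matched their stage labels in stage markers. The ybx1 transcript went from 338 to 2287 FPKM in WT and 11.9 to 54.2 in Mybx1, so both Mybx1 libraries lay far below both WT libraries. It rose in both genotypes, 6.76-fold (6.49 to 7.04) in WT (95% counting interval in brackets here and after other folds) and 4.57-fold (3.63 to 5.79) in Mybx1. The egg markers mos, btg4, zp3b, gdf9 and bmp15 were above 0 in both 0 hpf libraries, and the gastrula markers tbxta, chrd, gsc, krt5 and sox3 were high in the WT 6 hpf library. These markers do not check the stage of the Mybx1 6 hpf library. There chrd was at 0.101 and gsc at 0.817 FPKM, while mos was still at 58. Library totals recovered from the FPKM steps ran from 6042830 to 7570070 reads, and 13213 to 15207 genes per library had an FPKM of at least 1. In such bulk samples fewer cells of a type and less RNA per cell cannot be told apart, and FPKM values are shares of a library.

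Most of the WT turnover was absent or smaller in Mybx1. In WT 3283 genes (21.4% of those counted) rose and 6285 (40.9%) fell, 62.2% together, rose and fell being used here only of 2-fold or larger changes. In Mybx1 1201 genes (7.81%) rose and 1043 (6.78%) fell. The difference of stage changes passed 2-fold upward in 5692 genes (37%) and downward in 2866 (18.6%), with a median of 0.52 over all genes counted. Median changes over all genes counted were -0.61 (WT) and -0.05 (Mybx1). When libraries were scaled by median-ratio size factors in place of FPKM alone, the median difference became -0.01 and the higher share of the called genes went from 66.5% to 46.6%, so the excess of upward over downward calls depends on the scaling.

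**Figure D1:**
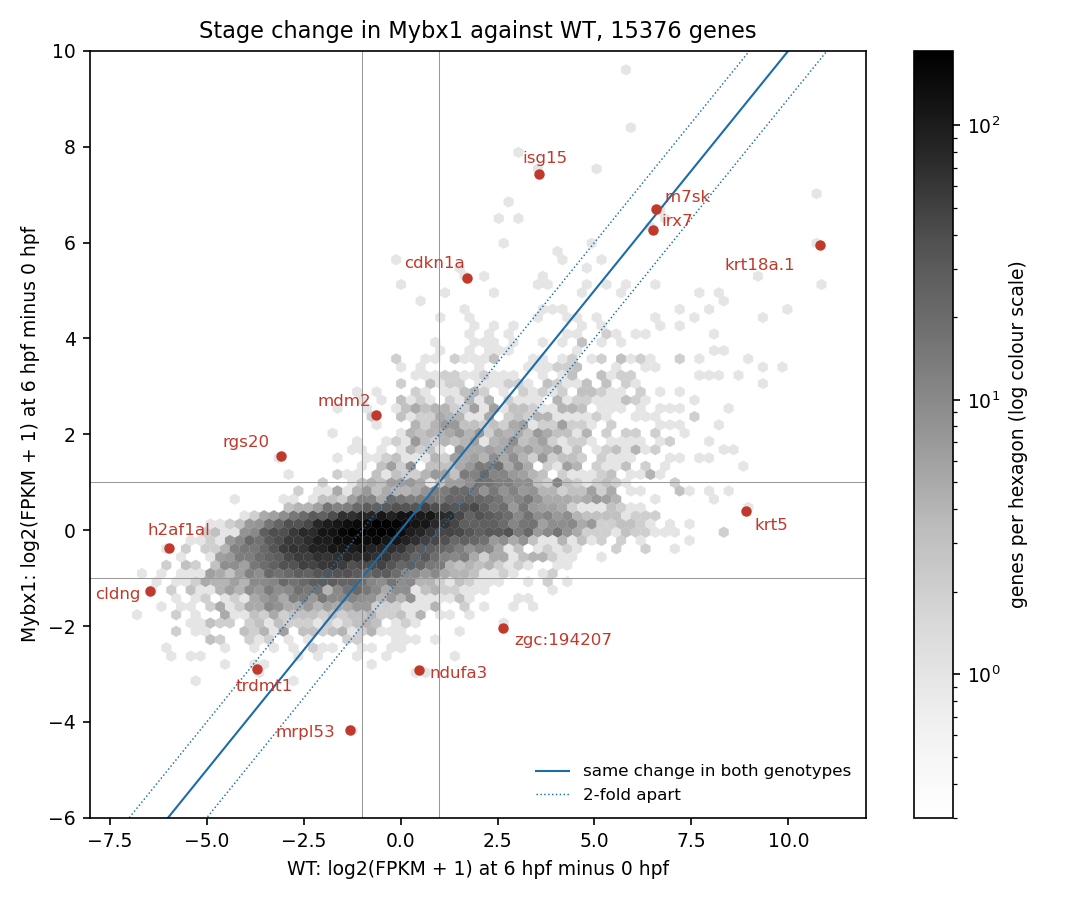
Change from 0 to 6 hpf on log2(FPKM + 1) in WT (horizontal axis) against the same change in Mybx1 (vertical axis) for the 15376 genes counted, with grey shading for the number of genes in a hexagon on a log scale, grey lines at 2-fold in each genotype, a blue diagonal for equal change and dotted lines 2-fold to either side of it. The cloud is long in the WT direction and flat in the Mybx1 direction; krt5 and h2af1al mark a lost rise and a lost fall, rn7sk and irx7 lie on the diagonal, and rgs20 and zgc:194207 are reversed.

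Each gene was then placed in a class by both changes. Of the 3283 genes that rose in WT, 1928 were lost (58.7%), meaning under 2-fold in Mybx1 with a difference of at least 2-fold, and 320 (9.75%) were reduced below 2-fold with a smaller difference. A further 532 (16.2%) were weakened, rising in both genotypes but at least 2-fold less in Mybx1, while 381 (11.6%) were kept within 2-fold, 84 (2.56%) exceeded the WT rise and 38 (1.16%) were reversed. Of the 6285 genes that fell in WT, 4731 (75.3%) were lost, 763 (12.1%) reduced, 433 (6.89%) weakened, 335 (5.33%) kept, 6 (0.0955%) exceeded and 17 (0.27%) reversed. Changes of at least 2-fold that Mybx1 made and WT did not, with a difference of at least 2-fold, numbered 150 rises (0.976% of all genes counted) and 124 falls (0.806%). The other 144 genes past 2-fold in Mybx1 alone had a smaller difference, and 5390 genes (35.1%) were past 2-fold in neither genotype. Of all genes counted, 12.5% were lost rises, 3.46% weakened rises, 2.48% kept rises, 30.8% lost falls, 2.82% weakened falls and 2.18% kept falls, which are the shares to read the lists against. Exceeded rises made up 0.546%, exceeded falls 0.039%, reversed falls 0.111% and changes in Mybx1 alone short of a 2-fold difference 0.937%.

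At 6 hpf 58.6% of genes were at least 2-fold apart between genotypes, 39.6% higher and 19.1% lower in Mybx1. The median share of the WT change seen in Mybx1 varied little with the size of that change. At the median a rise in WT was matched by 20.6% of its log2 size in Mybx1, and a fall by 14.15%. By size of the WT rise this median was 20.77% for 2- to 4-fold, 19.95% for 4- to 8-fold, 18.35% for 8- to 16-fold and 23.11% from 16-fold. For falls it was 13.48%, 13.98%, 14.55% and 17.52% in that order. Single genes varied widely around these medians, with quartiles of 2.01% and 47.66% over all rises and 0.88% and 30.62% over all falls. Larger WT changes were more often also past 2-fold in Mybx1. Of WT rises of 2- to 4-fold, 17.6% were also past 2-fold in Mybx1, against 54.7% of rises of at least 16-fold. The same shares for falls were 7.53% and 39%. The starting level moved with these shares too: below 0.1 FPKM at 0 hpf 50.6% of 998 WT rises were also rises in Mybx1, against 6.17% of 648 rises that started at 10 FPKM or more. Falls went the other way, from 7.52% of 1716 genes that started below 10 FPKM to 31.7% of 161 that started at 200 or more. These shares by starting level were not separated from the size of the WT change or from the filter on mean FPKM. A gene below 0.1 FPKM in the WT egg passes that filter only through its other libraries, Mybx1 at 6 hpf among them.

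**Figure D2:**
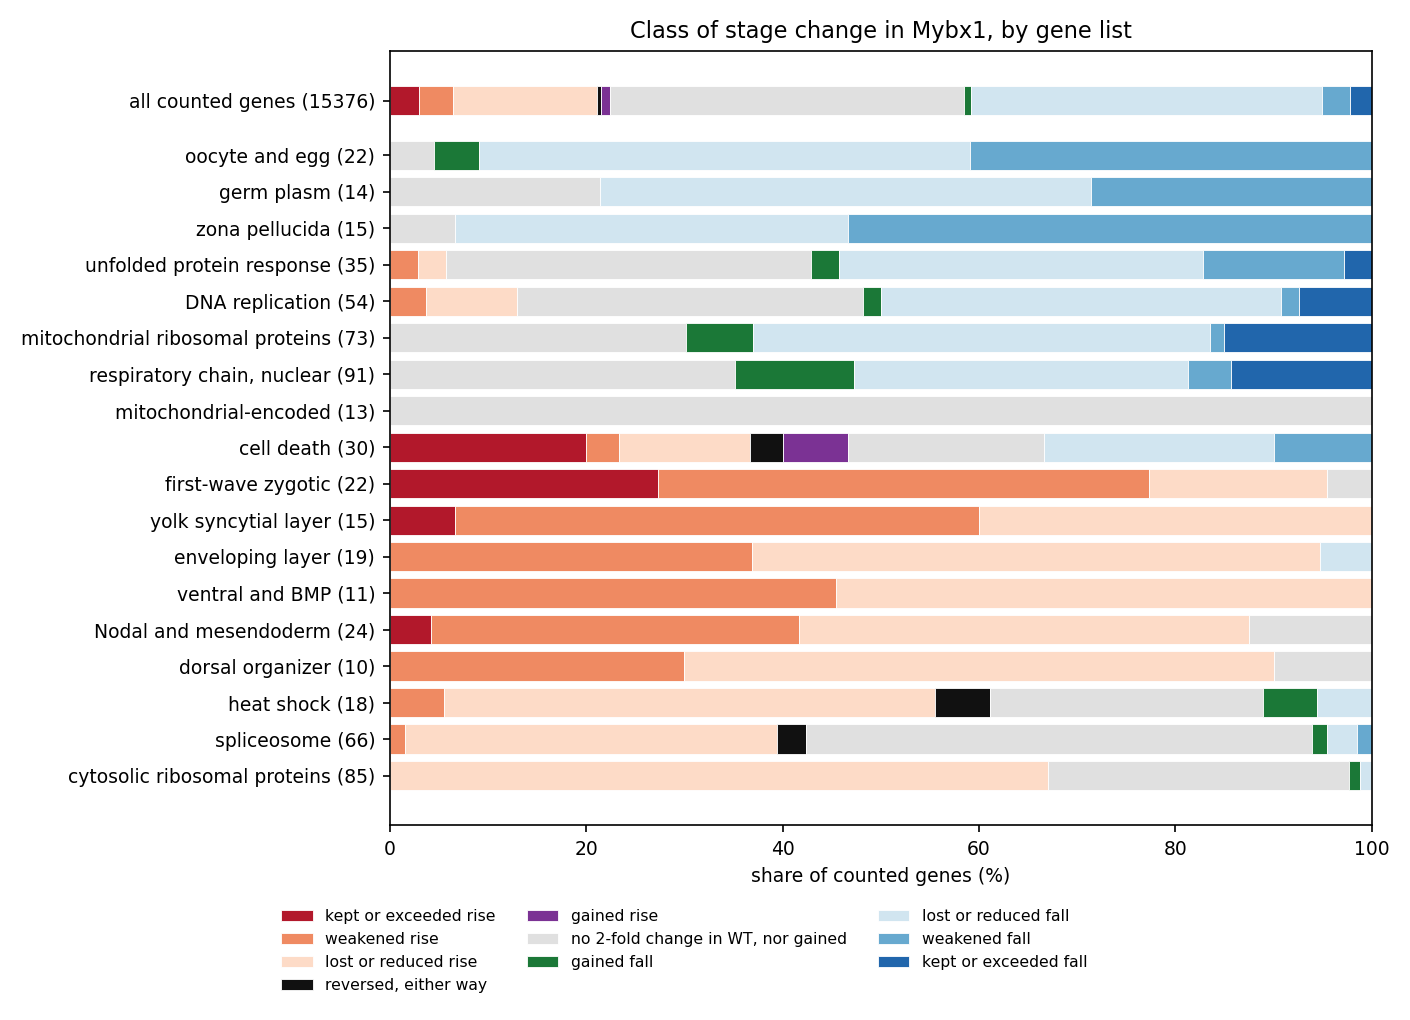
Share of the counted members of each gene list (horizontal axis, percent) in each class of stage change, with the number counted beside the list name and all counted genes as the first bar. Lost is drawn with reduced, and kept with exceeded. Lists of egg genes are filled by lost and weakened falls and lists of embryonic tissues by lost and weakened rises, and of the lists drawn the nuclear respiratory chain holds the largest share of gained falls.

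Genes of the oocyte and egg fell less in Mybx1, or not past 2-fold. Of 22 such genes, 20 fell in WT, and in Mybx1 9 of these were weakened, 10 lost and 1 reduced. With ccnb3, 10 of the 22 fell in Mybx1. Over all genes 12.3% of WT falls were also falls in Mybx1, and 22% of WT falls of 8- to 16-fold. A lost or weakened fall was thus not particular to egg genes, which retained a fall more often than all genes did. The list's median went from -3.42 (change in WT) to -0.92 (change in Mybx1). The maternal histone gene h2af1al had a difference of 5.62 and went from 1873 to 28.6 FPKM in WT and 1633 to 1267 in Mybx1. It fell 65.6-fold (53.8 to 80.7) in WT, and the Mybx1 6 hpf level was 44.4-fold (36.4 to 54.6) the WT level. The gene btg4, whose mammalian protein brings a deadenylase to maternal mRNA, went from 556 to 6.22 FPKM in WT and 783 to 401 in Mybx1. Its folds in the genotypes were 45.8-fold (30.5 to 71.9) apart. The egg claudin gene cldnd went from 2904 to 43.7 FPKM in WT and 2508 to 1503 in Mybx1. For h2af1al, btg4 and cldnd only the WT 6 hpf library was low, and the other libraries lay within 2-fold of one another. Of the further lost falls with the largest differences, map1lc3c encodes an autophagy protein and went from 554 to 9.18 FPKM in WT and 585 to 396 in Mybx1, while ripor3 and si:dkey-163f14.5 had differences of 5.40 and 5.70.

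Other egg transcripts fell part of the way. The meiotic kinase gene mos went from 195 to 2.25 FPKM in WT and 199 to 58 in Mybx1, a fall of 86.5-fold (53.9 to 149) in WT and of 3.43-fold (3.08 to 3.82) in Mybx1. The gene buc, which organises the oocyte's Balbiani body, went from 582 to 9.16 FPKM in WT and 524 to 224 in Mybx1. A second egg claudin gene, cldng, went from 1632 to 17.4 FPKM in WT and 1367 to 567 in Mybx1. In these genes the eggs were alike between genotypes and the Mybx1 6 hpf library lay between the eggs and the WT 6 hpf library. The difference of cldng, 5.21, was the largest among weakened falls. The lipase gene lipg went from 612 to 4.50 FPKM in WT and 784 to 221 in Mybx1. The gene cdca9 of the chromosomal passenger complex went from 167 to 1.57 FPKM in WT and 204 to 88.8 in Mybx1. The differences of rasef2 and SVIL, also weakened, were 5.18 and 4.67. The cyclin gene ccnb3 was an exception among the egg genes, falling in Mybx1 alone, from 90.3 to 139 FPKM in WT and 133 to 57.9 in Mybx1.

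Germ plasm genes split between lost and weakened falls. Of 14 counted, 11 fell in WT and 4 in Mybx1, with median changes of -3.47 and -0.61, and 6 were lost and 4 weakened. Over all genes 12.3% of WT falls were also falls in Mybx1. The germ cell repressor gene nanos3 went from 69.5 to 3.13 FPKM in WT and 166 to 108 in Mybx1. It started 2.39-fold (2.17 to 2.64) higher in the Mybx1 egg and ended 34.7-fold (22.7 to 55.7) higher at 6 hpf. The gene dnd1, whose product shields germ cell mRNA from microRNAs, went from 61.2 to 2.34 FPKM in WT and 54.8 to 31.4 in Mybx1. The eggs were alike and the WT 6 hpf library was the lowest. The RNA-binding protein gene dazl was weakened and went from 146 to 9.96 FPKM in WT and 163 to 43.6 in Mybx1.

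Most egg coat genes fell less in Mybx1. Of 15 zona pellucida genes 14 fell in WT and 8 in Mybx1, with 8 weakened, 4 lost and 2 reduced, and a median difference of 1.81. They retained a fall more often than all genes, of whose WT falls 12.3% were also falls in Mybx1. In the eggs their median Mybx1 minus WT was -0.68, with 4 of 15 at least 2-fold lower in Mybx1 and 0 higher. The egg coat gene zp3b went from 354 to 28.6 FPKM in WT and 121 to 43.4 in Mybx1. It was already lower in the Mybx1 egg, and its folds in the genotypes were 4.45-fold (3.68 to 5.38) apart. Zona pellucida genes have close paralogs, whose reads may be shared.

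Among genes that act on maternal RNA, 7 of 13 for microRNA processing (53.8%) had a higher difference, against 37% of all genes. Of these 13 genes 7 fell in WT, of which 6 were lost and 1 weakened, and the median difference was 1.47. The gene drosha, for the nuclear enzyme that cuts microRNA precursors, went from 51.9 to 4.41 FPKM in WT and 50.5 to 20.6 in Mybx1. Its partner gene dgcr8 went from 92.9 to 17.8 FPKM in WT and 89.6 to 79.8 in Mybx1. The Argonaute gene ago1 went from 20 to 5.56 FPKM in WT and 27.8 to 31.2 in Mybx1. In all 3 the WT 6 hpf library was the lowest. Of 47 mRNA decay genes 34.0% had a higher difference, as had 33.3% of 24 maternal mRNP genes, both near the share of all genes. Of the decay genes 16 fell in WT and 13 of these were lost. The poly(A) ribonuclease gene parn went from 466 to 53.6 FPKM in WT and 457 to 270.0 in Mybx1. The deadenylase gene cnot8 went from 207 to 49.6 FPKM in WT and 183 to 215 in Mybx1. The decay list's median difference of 0.61 was close to the 0.52 of all genes and became 0.03 with median-ratio factors. Among the mRNP genes the repressor gene lsm14b had the largest difference, 4.82, and went from 249 to 8.57 FPKM in WT and 366 to 394 in Mybx1. That list's median of 0.51 turned to -0.16 with median-ratio factors, so the list has no direction of its own.

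**Figure D3:**
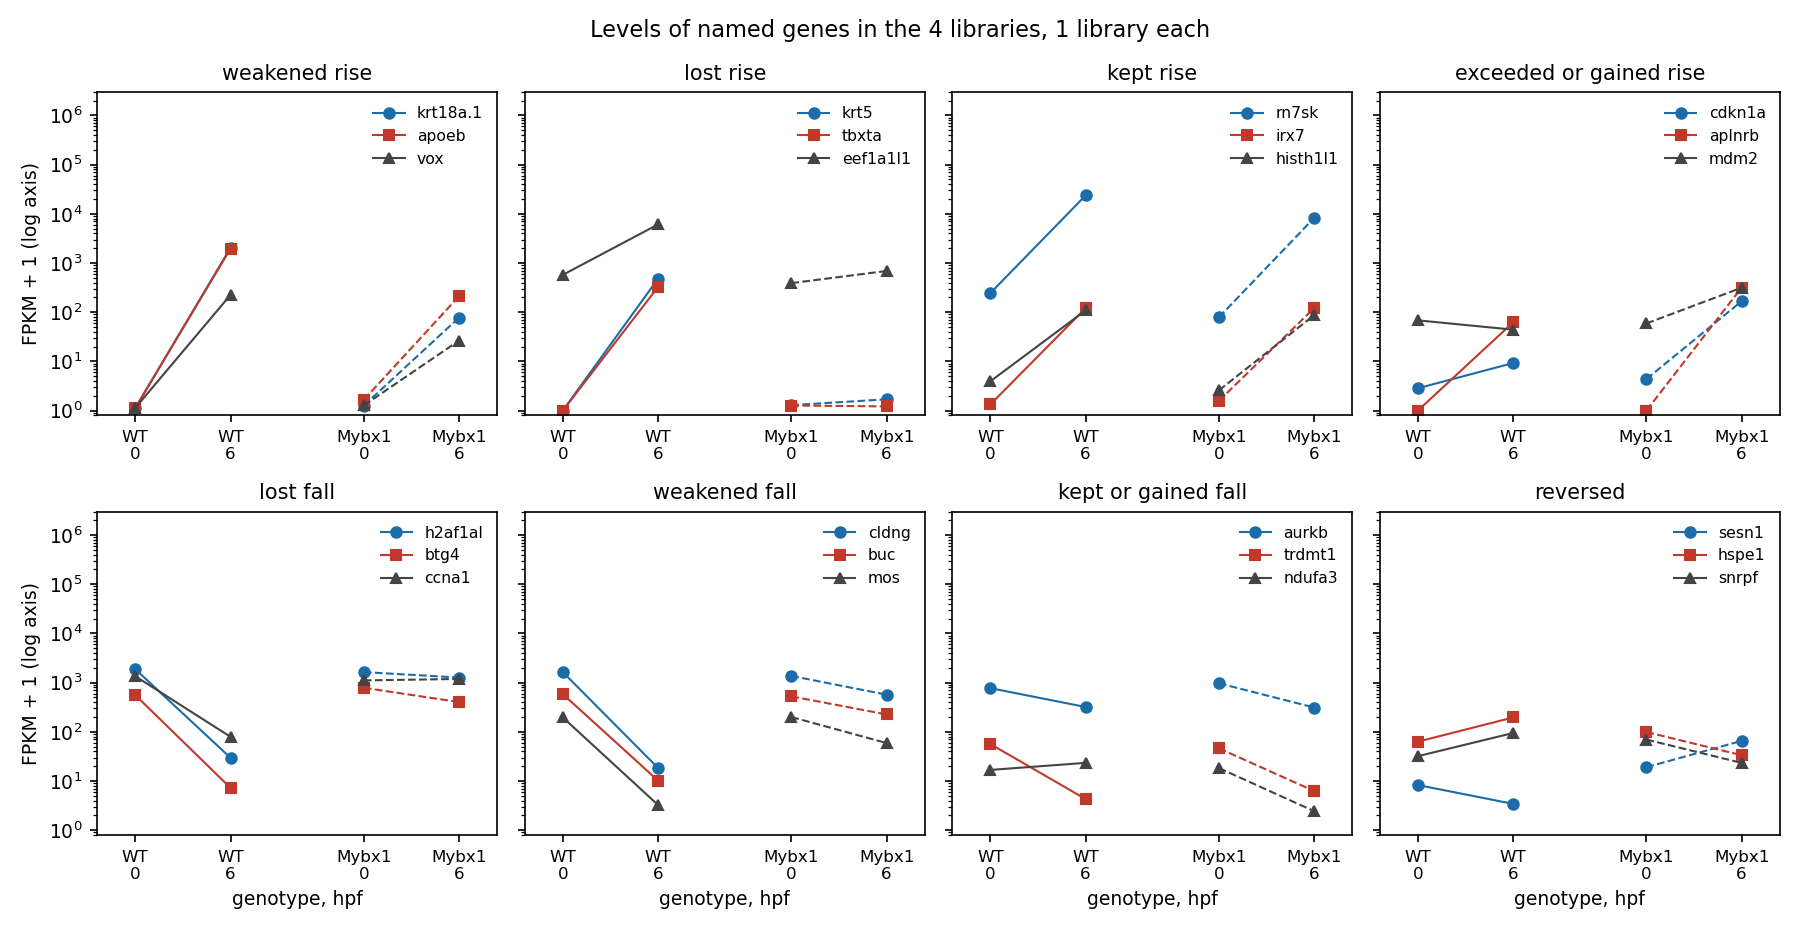
FPKM + 1 on a log axis in the 4 libraries for 3 genes of each class, with WT at 0 and 6 hpf joined by a full line, Mybx1 joined by a dashed line, and no error bar since each point is 1 library. In the panels of lost falls the WT 6 hpf point lies below the other libraries, in the lost rises it lies above them, and cdkn1a, aplnrb and mdm2 are highest in the Mybx1 6 hpf library.

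Egg forms of several genes stayed near their egg level in Mybx1, while related genes that rise in WT were weakened in some cases and kept in others. The oocyte linker histone gene h1m went from 1035 to 48.7 FPKM in WT and 1017 to 904 in Mybx1, a fall of 21.3-fold (19.2 to 23.5) in WT against a level 1.12-fold (1.09 to 1.16) lower in Mybx1. The linker histone gene histh1l1 rose in both, from 2.94 to 108 FPKM in WT and 1.57 to 86.1 in Mybx1. The egg cyclin gene ccna1 went from 1351 to 78 FPKM in WT and 1107 to 1186 in Mybx1. Of 9 cyclin and CDK genes that rose in WT, 7 also rose in Mybx1, with 2 kept, 1 exceeded and 4 weakened. Over all genes 30.4% of WT rises were also rises in Mybx1, and 54.7% of WT rises of at least 16-fold. With 9 genes this count is a description only. The G1 cyclin gene ccnd1 went from 2.13 to 598 FPKM in WT and 0.588 to 7.46 in Mybx1. The G1/S cyclin gene ccne2 went from 1.69 to 159.8 FPKM in WT and 1.67 to 10.1 in Mybx1. Both rose in both genotypes and were weakened. The replication licensing gene mcm3l of the egg went from 120.1 to 4.93 FPKM in WT and 96.2 to 72.2 in Mybx1. The related gene mcm3, near 0 in the eggs, went from 0.0431 to 166 FPKM in WT and 0.179 to 12.7 in Mybx1. The oocyte kinase gene wee2, which holds Cdk1 inactive, was a lost fall and went from 177 to 10.2 FPKM in WT and 165 to 154 in Mybx1. The related gene wee1 was a kept rise and went from 3.84 to 73.3 FPKM in WT and 0.597 to 16.4 in Mybx1. Over 55 cyclins and CDKs the median difference was 0.34 and over 54 DNA replication genes 0.54, near that of all genes, and both turned negative with median-ratio factors (-0.17 and -0.12).

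Maternal activators of the zygotic genome split by what they did in WT. The homeobox gene nanog went from 325 to 48.5 FPKM in WT and 375 to 564 in Mybx1. The SoxB1 gene sox19b went from 284 to 37.3 FPKM in WT and 349 to 432 in Mybx1. Both were lost falls, highest in the Mybx1 6 hpf library, and the folds of nanog were 10.1-fold (9.15 to 11.1) apart. The POU factor gene pou5f3 was a lost rise and went from 153 to 637 FPKM in WT and 219 to 276 in Mybx1. The Myc-family gene mych went from 7.60 to 258 FPKM in WT and 34.6 to 61.8 in Mybx1. Of the 7 activators 3 were lost rises, 1 a reduced rise and 3 lost falls, and 0 changed past 2-fold in Mybx1. Over all genes 58.7% of WT rises and 75.3% of WT falls were lost, and 14.6% of genes changed past 2-fold in Mybx1. A lost change was thus not particular to the activators.

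Most first-wave zygotic genes still rose in Mybx1. Of 22, 21 rose in WT and 17 in Mybx1, with median changes of 5.69 and 2.43. Of these 11 were weakened, 4 lost, 2 kept and 4 exceeded. Over all genes 30.4% of WT rises were also rises in Mybx1, and 54.7% of WT rises of at least 16-fold, the range that holds this list's WT median. Summed FPKM of the list was 10.5 and 10.05 in the WT and Mybx1 eggs and 3521 and 1080 at 6 hpf. Its genes thus passed the filter largely through the 6 hpf libraries. The Iroquois homeobox gene irx7 rose alike, from 0.334 to 119.6 FPKM in WT and 0.577 to 120.5 in Mybx1. The forkhead gene foxi1, outside that list, ended near its WT level and went from 0.0808 to 27.1 FPKM in WT and 1.34 to 32.1 in Mybx1. Others of this wave were weakened. The Krüppel-like gene klf17 went from 0.0813 to 41.7 FPKM in WT and 0.253 to 9.98 in Mybx1. The ventral repressor gene vox went from 0.133 to 224 FPKM in WT and 0.276 to 25.5 in Mybx1. The SoxB1 gene sox19a went from 0 to 329 FPKM in WT and 0.0855 to 30.4 in Mybx1. These 3 had few or 0 reads in the eggs, so intervals for the ratio of their folds are wide, and that of vox includes 1, at 18.2-fold (0.939 to 1075). The apelin receptor gene aplnrb exceeded its WT rise and went from 0 to 61.2 FPKM in WT and 0 to 316 in Mybx1. Its relative aplnra was weakened and went from 0 to 63.8 FPKM in WT and 0 to 2.33 in Mybx1. Their ligand gene apela went from 0 to 135 FPKM in WT and 0 to 1.02 in Mybx1.

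Most germ layer genes rose less in Mybx1, or not past 2-fold. Of 24 Nodal and mesendoderm genes 21 rose in WT, and in Mybx1 11 were lost, 9 weakened and 1 kept, with median changes of 4.15 and 0.25. Over all genes 58.7% of WT rises were lost and 30.4% were also rises in Mybx1, so a lost rise was not particular to this list. Summed FPKM of the list was 144 and 309 in the WT and Mybx1 eggs and 1280 and 257 at 6 hpf. Passing the filter through the WT 6 hpf library favours a WT rise, so the counts are descriptions only. The mesodermal Brachyury gene tbxta was lost, from 0 to 325 FPKM in WT and 0.268 to 0.216 in Mybx1. Its Mybx1 level at 6 hpf was 1504-fold (416 to 12430) lower than in WT. The endoderm determinant gene sox32 went from 0 to 159.7 FPKM in WT and 0 to 0.815 in Mybx1. In these genes only the WT 6 hpf library was well above 0. The kept member was the Nodal ligand gene ndr1, from 0.166 to 3.62 FPKM in WT and 0.688 to 4.99 in Mybx1. It rests on 1 read in the WT egg, and the ratio of its folds without the pseudocount, 3.01-fold (0.262 to 156), includes 1, so kept or weakened turns on the pseudocount. The other early Nodal ligand gene, ndr2, was weakened, from 0.174 to 25.5 FPKM in WT and 0.0904 to 6.34 in Mybx1. Its ratio of folds, 2.08-fold (0.0348 to 40.6), has an interval that includes 1, since few of its reads came from the eggs.

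Dorsal and ventral lists gave similar medians. Of 10 organizer genes 9 rose in WT, with 6 lost and 3 weakened in Mybx1, and of 11 ventral and BMP genes 11 rose in WT, with 6 lost and 5 weakened. Their median differences were -3.66 and -3.81. Summed FPKM of the organizer list was 35.4 and 38.1 in the WT and Mybx1 eggs and 515 in WT at 6 hpf. For the ventral list these sums were 22.3, 18.55 and 862. Members thus passed the filter largely through the WT 6 hpf library, so the counts are descriptions only. The BMP antagonist gene chrd went from 0 to 178 FPKM in WT and 0.0416 to 0.101 in Mybx1. The organizer homeobox gene gsc went from 0.652 to 30.2 FPKM in WT and 0.451 to 0.817 in Mybx1. The LIM homeobox gene lhx1a, present in the eggs, went from 11.9 to 70.7 FPKM in WT and 6.18 to 5.95 in Mybx1. On the ventral side eve1, a homeobox gene, reached 121 FPKM in WT at 6 hpf and was at 0 reads in both Mybx1 libraries. Of 14 FGF ligands and targets 11 rose in WT, 9 of them lost and 2 weakened. Over all genes 58.7% of WT rises were lost and 16.2% weakened. A lost rise was thus not particular to the organizer, ventral or FGF lists, and the FGF count too is a description only. The ERK phosphatase gene dusp6, induced by FGF, went from 0.0720 to 216 FPKM in WT and 0.149 to 2.08 in Mybx1. In the neuroectoderm list sox2, a SoxB1 gene, went from 0.0638 to 65.7 FPKM in WT and 0.198 to 0.399 in Mybx1.

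The outer epithelium was among the lists with the lowest median differences, at -4.88. Of 19 enveloping layer genes 18 rose in WT, of which 11 were lost and 7 weakened, with median changes of 6.19 and 0.31. Over all genes 58.7% of WT rises were lost and 16.2% weakened, so a lost rise was not particular to this list. Of 10 keratin genes counted, 10 rose in WT, and 7 were lost and 3 weakened. Their median difference of -6.45 was the lowest of the lists. Summed over the 20 keratin genes matched, FPKM was 7.82 and 12.6 in the WT and Mybx1 eggs and 6488 in WT at 6 hpf. Those counted thus passed the filter largely through the WT 6 hpf library. That favours a WT rise, so these counts are descriptions only. The keratin gene krt5 went from 0 to 479 FPKM in WT and 0.288 to 0.696 in Mybx1. A second one, krt92, went from 0 to 351 FPKM in WT and 0.107 to 1.03 in Mybx1. The weakened gene krt4 went from 0.214 to 1094 FPKM in WT and 0.222 to 11.5 in Mybx1, and its WT fold exceeded its Mybx1 fold 99-fold (18.2 to 534). The simple-epithelium keratin genes were weakened too. Of them krt8 went from 5.54 to 1860 FPKM in WT and 8.77 to 86.3 in Mybx1. Its partner krt18a.1 went from 0.128 to 2042 FPKM in WT and 0.265 to 77 in Mybx1. The Grainyhead factor gene grhl3 kept more, from 0.555 to 82.8 FPKM in WT and 0.230 to 16.8 in Mybx1, and its ratio of folds, 2.04-fold (0.192 to 12.6), includes 1.

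Yolk syncytial layer genes rose less in Mybx1 with 1 exception. Of 15 genes 15 rose in WT, with 8 weakened, 6 lost and 1 exceeded in Mybx1, so that 9 rose in Mybx1. Over all genes 30.4% of WT rises were also rises in Mybx1, and 54.7% of WT rises of at least 16-fold. Summed FPKM of the list was 1.625 and 4.545 in the WT and Mybx1 eggs and 3264 in WT at 6 hpf. These genes too passed the filter largely through the WT 6 hpf library, so the counts are descriptions only. The exceeding gene was mxtx2, the homeobox activator of this layer, from 0 to 7.25 FPKM in WT and 0.103 to 104 in Mybx1. At 6 hpf Mybx1 had 14.3-fold (11 to 18.9) the WT level. The gene mttp, which loads lipid on lipoproteins, went from 0.117 to 384 FPKM in WT and 0 to 2.12 in Mybx1. The apolipoprotein gene apoc1 went from 0.508 to 202 FPKM in WT and 1.40 to 0.849 in Mybx1. A second apolipoprotein gene, apoeb, went from 0.127 to 1971 FPKM in WT and 0.660 to 211 in Mybx1. Among the further weakened rises with the largest differences, stm, an otolith gene, went from 0 to 646 FPKM in WT and 0 to 7.13 in Mybx1. The adhesion gene alcamb went from 0 to 245 FPKM in WT and 0 to 1.77 in Mybx1. The gene zgc:193505 went from 0 to 493 FPKM in WT and 0 to 1.43 in Mybx1.

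Growth and housekeeping genes that rose in WT mostly stayed under 2-fold in Mybx1. Of 85 cytosolic ribosomal protein genes 57 rose in WT, and 55 of these were lost and 2 reduced, with a median difference of -1.41. Over all genes 58.7% of WT rises were lost and 9.75% reduced. Among WT rises that started at 10 FPKM or more, 65.7% were lost and 26.2% reduced. A level under 2-fold in Mybx1 was thus not particular to growth and housekeeping genes. The ribosomal gene rpl34 went from 78 to 324 FPKM in WT and 77.5 to 57.1 in Mybx1. The gene rplp2 was the single member past 2-fold in Mybx1, falling there, from 143 to 151 FPKM in WT and 207 to 61.9 in Mybx1. The elongation factor gene eef1a1l1 went from 574 to 6096 FPKM in WT and 389 to 689 in Mybx1. The replacement histone gene h3f3a went from 483 to 3715 FPKM in WT and 661 to 1128 in Mybx1. Of 18 heat shock genes 11 rose in WT and 1 in Mybx1. The Hsp90 gene HSP90AA1 was a lost rise, from 1.12 to 639 FPKM in WT and 4.79 to 4.71 in Mybx1, with a WT level at 6 hpf 136-fold (104 to 179) above Mybx1. The small heat shock gene hspb1 was weakened, from 0 to 1854 FPKM in WT and 1.07 to 66.2 in Mybx1. Of 66 spliceosome genes 28 rose in WT, 14 of them lost, 11 reduced and 2 reversed.

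Homeobox, T-box, Wnt and claudin genes gave negative median differences of -2.44 (40 counted), -2.75 (6), -2.09 (22) and -1.65 (19). The genes counted were 40 of 93, 6 of 20, 22 of 52 and 19 of 39 matched, in that order. Without the filter on mean FPKM these medians stayed negative but shrank. They then lay within the -0.53 by which median-ratio factors moved the median of all genes. The values thus describe the genes that passed the filter, and no direction is given for the whole families. Medians nearer to 0 were those of zinc fingers with znf symbols at -0.30 (183), translation factors at -0.15 (77), proteasome at -0.01 (52), nuclear pores and transport at -0.08 (60), and m6A writers and readers at -0.04 (16). Translation factors, proteasome, nuclear pores and m6A genes took the positive sign under TPM scaling, so no direction is given for them. The 13 mitochondrial-encoded transcripts were steady in both genotypes, with a median difference of 0.06. Of the remaining lists, the median was -1.06 for Sox genes (12 counted), -0.60 for retinoic acid (7), -0.55 for histones (22) and 1.201 for steroid synthesis (7). Those of Sox and steroid synthesis genes also shrank to within that distance without the filter. Fox (26) and mTORC1 (23) genes, at 0.37 and 0.41, turned negative with median-ratio factors, and cadherins and catenins (26) and interferon genes (8) lay at 0.03 and 0.09.

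Some transcripts rose alike in both genotypes. The 7SK RNA gene rn7sk, whose product holds the elongation factor P-TEFb inactive, went from 244 to 23620 FPKM in WT and 77.8 to 8238 in Mybx1. It rose 96.9-fold (89.4 to 105) in WT and 106-fold (91.5 to 123) in Mybx1, with folds 1.09-fold (0.923 to 1.30) apart, and was lower in Mybx1 than in WT at both stages. The gene plekhn1 went from 0.269 to 48 FPKM in WT and 0.372 to 50.1 in Mybx1. The gene si:ch211-173m16.2 went from 0 to 108 FPKM in WT and 0 to 85.2 in Mybx1, at least 118-fold in WT and at least 90.2-fold in Mybx1 against the 3 reads that bound an egg at 0. The gene si:dkey-254e13.13 went from 0 to 28.4 FPKM in WT and 0 to 45.8 in Mybx1. Kept rises had a median smallest length of 932 bases, against 1625 for all genes, 1583 for lost rises and 1435 for reduced rises. Short genes were not particular to kept rises. The median was 1098 bases for weakened, 836.5 for exceeded and 819.5 for reversed rises. The part of length in the result was not tested.

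Several genes of cell cycle arrest and cell death rose more in Mybx1 than in WT. Of 30 counted 18 (60%) had a higher and 2 a lower difference, against 37% and 18.6% of all genes. Among the 30, 5 were exceeded and 2 gained rises, while 6 were lost and 3 weakened falls. The higher difference of those falls is a smaller fall and not a larger rise. The median difference was 1.28 (0.72 with median-ratio factors). The gene cdkn1a, for the p21 inhibitor of cyclin-dependent kinases, went from 1.84 to 8.25 FPKM in WT and 3.38 to 167 in Mybx1. Only the Mybx1 6 hpf library was high, and its Mybx1 fold exceeded the WT fold 11-fold (4.79 to 24.2). The gene mdm2, for a ubiquitin ligase, rose in Mybx1 alone, from 67.3 to 43.2 FPKM in WT and 58.1 to 314 in Mybx1. The death activator gene bbc3 went from 0.486 to 2.61 FPKM in WT and 2.62 to 33 in Mybx1, and its folds were 2.34-fold (1.15 to 4.48) apart. The AP-1 gene jun exceeded its WT rise, from 0 to 10.1 FPKM in WT and 0.715 to 56 in Mybx1. It had 0 reads in the WT egg and 5 in the Mybx1 egg. The interval for the ratio of its Mybx1 fold to its WT fold, 0 to 6.01, includes 1, so its class rests on the pseudocount. Of the mutant-high genes, phlda3 went from 0.0888 to 3.66 FPKM in WT and 2.21 to 35.8 in Mybx1. Its difference on log2(FPKM + 1) was 1.42, while without the pseudocount its Mybx1 fold was lower than its WT fold by 2.54-fold (0.388 to 108), an interval that includes 1, so its class turns on the pseudocount.

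Initiator caspase genes did not fall in Mybx1. The gene casp8 went from 22.4 to 4.64 FPKM in WT and 19.8 to 39.95 in Mybx1. The gene casp9 went from 23.2 to 4.96 FPKM in WT and 20.8 to 23.4 in Mybx1. Both were classed as lost falls. For casp8 the Mybx1 change was 0.98 on log2(FPKM + 1), just under the threshold. Without the pseudocount it went up 2.023-fold (1.747 to 2.345) in Mybx1, so lost or reversed turns on the pseudocount. The sestrin gene sesn3 was a weakened rise and went from 0 to 155 FPKM in WT and 0.258 to 24.4 in Mybx1. The forkhead gene foxo3b was classed as rising in Mybx1 alone, from 2.23 to 4.94 FPKM in WT and 1.51 to 38.9 in Mybx1. Without the pseudocount its WT values too are past 2-fold, so gained or exceeded turns on the pseudocount. Outside the list, isg15, a ubiquitin-like interferon-induced gene, exceeded its WT rise and went from 0 to 10.8 FPKM in WT and 0 to 172 in Mybx1. The genes phlda2 and ankrd50l were classed as rising in Mybx1 alone, from 0.144 to 0.522 FPKM in WT and 0.447 to 14 in Mybx1 for phlda2. That gene rests on 1 and 3 reads in the WT libraries, and the ratio of its folds, 8.63-fold (0.124 to 150.3), includes 1. The values of ankrd50l went from 5.14 to 2.69 FPKM in WT and 3.11 to 29.3 in Mybx1. Further exceeded or gained rises with the largest differences were si:ch211-239d6.2, si:dkey-159n16.3, si:ch211-207c7.6, si:dkey-159n16.4 and si:ch211-239d6.4, with Mybx1 6 hpf levels between 11.3 and 86.4 FPKM.

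Some genes of the unfolded protein response were lower in the Mybx1 egg. In the eggs their median Mybx1 minus WT was -0.57, with 9 of 35 at least 2-fold lower, against 6.03% of all genes, and at 6 hpf it was 0.52, against 0.58 over all genes. Of the 35 genes 19 fell in WT and 7 in Mybx1, with 12 lost, 5 weakened and 1 kept. The median difference was 0.91 and 0.25 with median-ratio factors. The ER chaperone gene hspa5 went from 896 to 177 FPKM in WT and 554 to 314 in Mybx1. The response's transcription factor gene xbp1 fell in Mybx1 alone, from 261 to 206 FPKM in WT and 213 to 83 in Mybx1.

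Falls in Mybx1 were frequent among nuclear genes of mitochondria, though most of their WT falls were lost or reduced. Of 91 nuclear genes of the respiratory chain 48 fell in WT and 32 in Mybx1, with 13 kept, 4 weakened, 17 lost, 14 reduced and 11 gained falls, and the list's median difference of 0.21 turned to -0.39 with median-ratio factors. Of 73 mitochondrial ribosomal protein genes 46 fell in WT and 24 in Mybx1, with 10 kept, 21 lost, 13 reduced, 1 weakened, 1 exceeded and 5 gained. Over all genes counted 2.18% were kept falls and 0.806% gained falls, and 12.3% of WT falls were also falls in Mybx1. That last share was 22.4% for genes of over 500 and up to 1000 bases, the range of both lists' median lengths. Of all genes in that range 39.5% fell in WT and 12.8% in Mybx1. The shares of kept and gained falls were not matched for length. The complex I subunit gene ndufa3 fell in Mybx1 alone, from 15.8 to 22.3 FPKM in WT and 17.3 to 1.43 in Mybx1. Its fellow subunit gene ndufs6 went from 26.2 to 40.3 FPKM in WT and 19.1 to 4.69 in Mybx1. The cytochrome oxidase gene cox7c went from 150.5 to 259.6 FPKM in WT and 120.3 to 55.2 in Mybx1. In each of these the WT 6 hpf library was the highest. The assembly factor gene cox14 fell in both, from 32.7 to 2.19 FPKM in WT and 48.9 to 6.39 in Mybx1. The mitochondrial ribosomal gene mrpl53 fell further in Mybx1, from 25.4 to 9.71 FPKM in WT and 39.8 to 1.25 in Mybx1. The gene mrpl54 fell in Mybx1 alone, from 26.1 to 29.1 FPKM in WT and 47.8 to 12.6 in Mybx1.

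Other kept falls lay outside mitochondria. The tRNA methyltransferase gene trdmt1 went from 55.4 to 3.29 FPKM in WT and 45.2 to 5.25 in Mybx1. The centriole duplication gene stil went from 39.8 to 5.91 FPKM in WT and 54.6 to 8.28 in Mybx1, with folds 1.02-fold (0.828 to 1.26) apart. The recombination gene xrcc2 went from 11.6 to 0.396 FPKM in WT and 12.9 to 1.50 in Mybx1. Replication and division genes were found here too. The replication fork gene cdc45 went from 143 to 17.9 FPKM in WT and 131 to 26.2 in Mybx1. The Aurora kinase gene aurkb went from 771 to 318 FPKM in WT and 968 to 311 in Mybx1. The Ragulator subunit gene lamtor3 went from 67.1 to 9.21 FPKM in WT and 43.8 to 4.37 in Mybx1. In these genes both 6 hpf libraries were below both eggs, and zgc:158343 had the same pattern. Falls larger in Mybx1 were those of kpna2, an importin gene, from 523 to 223 FPKM in WT and 516 to 79.3 in Mybx1. The gene grinab went from 38.1 to 16.9 FPKM in WT and 42.4 to 7.55 in Mybx1. Falls in Mybx1 alone included those of the topoisomerase gene top2a, from 164 to 129.5 FPKM in WT and 123 to 21 in Mybx1, and of cdk1, from 66.2 to 57 FPKM in WT and 62.3 to 21.7 in Mybx1. The ER translocon gene sec61g went from 89.4 to 128 FPKM in WT and 47.7 to 12.8 in Mybx1. Among the others, STAP2, llph and si:ch211-245h14.4 had differences of -3.16, -2.38 and -2.57.

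Length moved with this class. Of WT falls, 23.3% of those in genes of at most 500 bases were also falls in Mybx1, against 3.32% above 5000 bases, taking the smallest length that gives whole reads. The order held at each size of WT fall. It ran from 16.6% at up to 1000 bases to 2.12% above 3000 for falls of 2- to 4-fold, and from 43.7% to 13.3% for falls of at least 8-fold. The median length was 1155 bases for kept falls, 979.5 for gained falls and 1738 for lost falls, 742 for the respiratory chain list and 906 for the mitochondrial ribosomal list. The part of length in the falls of these lists was not tested.

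**Figure D4:**
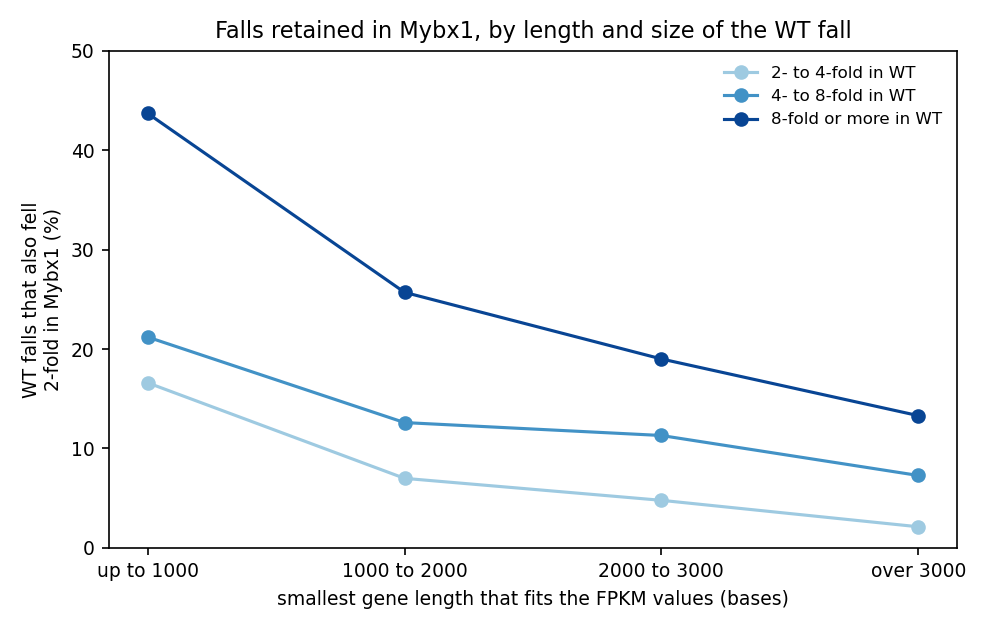
Percent of WT falls that were also past 2-fold in Mybx1 (vertical axis, from 0) by gene length in bases (horizontal axis), with 1 line for each size of WT fall. In each line the share goes down as genes get longer, from 43.7% to 13.3% for falls of at least 8-fold.

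Few genes changed in opposite directions. The 38 reversed rises made up 0.247% of the genes counted. Of them 23 (60.5%) were at least 2-fold apart in the eggs, and those 23 were higher in Mybx1, against 14.2% of all genes that were 2-fold apart there (8.2% higher and 6.03% lower in Mybx1). Of the 17 reversed falls 10 (58.8%) were 2-fold apart in the eggs, 8 lower and 2 higher in Mybx1. The egg values enter the difference itself. The mitochondrial chaperonin gene hspe1 went from 62 to 194 FPKM in WT and 97.9 to 32.4 in Mybx1, rising 3.14-fold (2.79 to 3.54) in WT and falling 3.02-fold (2.53 to 3.62) in Mybx1. The splicing gene snrpf, for an Sm ring protein, went from 30.9 to 93.5 FPKM in WT and 68.5 to 22.3 in Mybx1. Its ring partner gene snrpg went from 50.2 to 150.2 FPKM in WT and 72.3 to 27.2 in Mybx1. Another ring gene, snrpd2, was a gained fall, from 80.2 to 154 FPKM in WT and 88 to 38.4 in Mybx1. The first 3 of these were picked for naming after their values were seen.

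The reversed genes with the largest differences were low in at least 1 library, apart from zgc:103755. The cholesterol hydroxylase gene ch25hl1.1 went from 0.124 to 21.1 FPKM in WT and 1.41 to 0.155 in Mybx1. The gene mala.2 went from 0.806 to 27 FPKM in WT and 3.51 to 1.01 in Mybx1. The secreted factor gene ndnf was high in the Mybx1 egg, from 0.323 to 10.5 FPKM in WT and 10.6 to 3.47 in Mybx1. As with ndnf, zgc:194207 started high there, from 0.875 to 10.8 FPKM in WT and 15.1 to 2.92 in Mybx1. The gene si:ch211-195b11.3 went from 0.578 to 14.6 FPKM in WT and 2.70 to 0.362 in Mybx1. The microRNA gene dre-mir-15b rested on 11 reads in WT at 6 hpf and 1 read in the Mybx1 egg, which gives no firm direction. In the opposite direction the G protein regulator gene rgs20 went from 8.90 to 0.161 FPKM in WT and 7.44 to 23.8 in Mybx1. The sestrin gene sesn1 went from 7.27 to 2.43 FPKM in WT and 18.1 to 64.5 in Mybx1. Both were highest in the Mybx1 6 hpf library. The gene zgc:103755 went from 21.8 to 10.2 FPKM in WT and 36.9 to 122 in Mybx1. The PARP-family gene parp12b went from 16.1 to 6.84 FPKM in WT and 1.64 to 4.63 in Mybx1, with a low Mybx1 egg level.

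**Figure D5:**
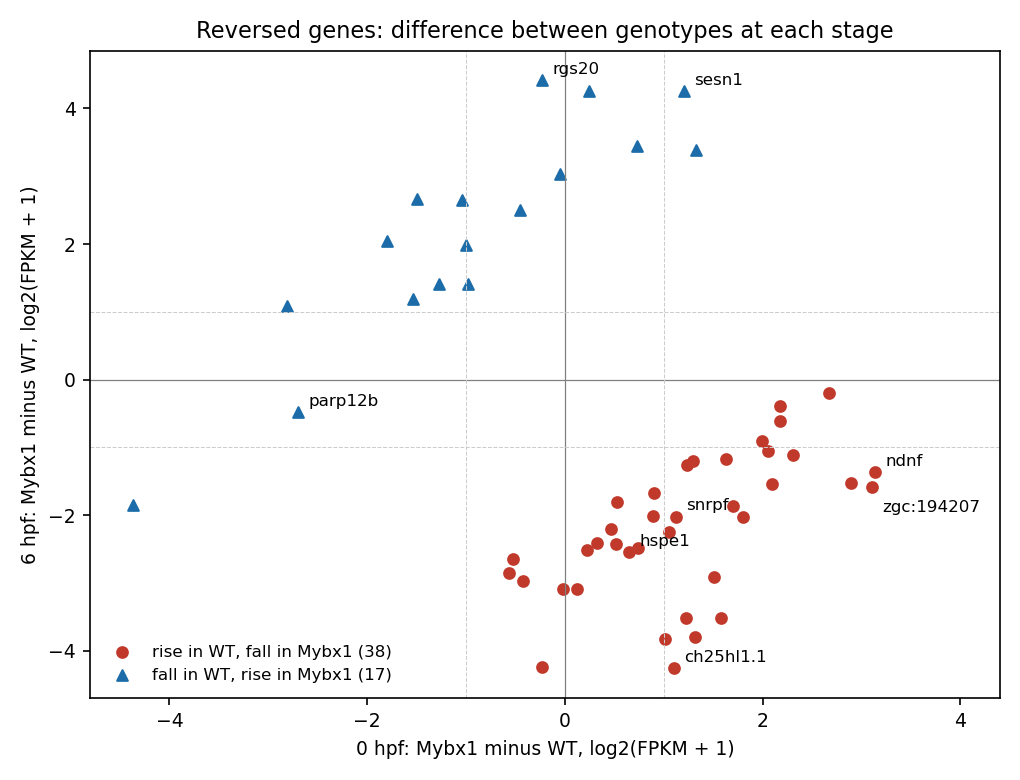
Mybx1 minus WT on log2(FPKM + 1) at 0 hpf (horizontal axis) and at 6 hpf (vertical axis) for the 38 genes that rose in WT and fell in Mybx1 (circles) and the 17 with the opposite pattern (triangles), 1 point a gene, with dashed lines at 2-fold. The 38 circles lie below 0 at 6 hpf, and 23 of them lie to the right of the 2-fold line at 0 hpf.

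Markers of other cells were few. Of 9 ovarian follicle genes matched, 1 passed the filter on low values, rspo1, from 4.83 to 0.308 FPKM in WT and 4.69 to 6.31 in Mybx1. Of 9 blood genes 1 passed, cahz, from 0 to 15.4 FPKM in WT and 0 to 0.191 in Mybx1. Of 13 sperm genes 4 passed, and spata18 was above WT at both stages in Mybx1, from 6.63 to 0.383 FPKM in WT and 56.8 to 44.4 in Mybx1. Summed over a list, follicle genes ran from 2.76 to 9.44 FPKM per library with 1 to 5 of the 9 at 0. Blood genes ran from 0.530 to 18.1 with 3 to 6 of 9 at 0, and sperm genes from 13.1 to 84.5 with 1 to 3 of 13 at 0. The Mybx1 libraries had the highest sperm sums, 84.5 at 0 hpf and 71.5 at 6 hpf. Of these spata18 alone gave 56.8 and 44.4, so the sums rest mostly on that gene. Their part in the result was not tested.

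Genes at the threshold give the scale of a call. Just inside an upward difference of 1 were cry5, si:dkeyp-55f12.3 and yju2, and just outside were ccnc, mcee and ubxn6. The splicing gene yju2 went from 83.8 to 41.2 FPKM in WT and 107 to 106 in Mybx1. The cyclin gene ccnc went from 27.2 to 14.1 FPKM in WT and 29.9 to 31.9 in Mybx1. Just inside a downward difference were gipc1, btf3 and si:dkey-15h8.15, and just outside were hnrnpul1l, si:ch211-113a14.28 and unm_sa38659. The gene btf3 went from 199 to 427 FPKM in WT and 168 to 179 in Mybx1. The gene hnrnpul1l went from 61.8 to 153 FPKM in WT and 64.5 to 79.6 in Mybx1.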

How the data were processed

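RNA was measured in 4 libraries, 1 per group. Trizol extraction, DNase I, RNeasy clean-up, Ribo-zero depletion and a NEBNext kit were used, per the labels' protocols. The authors deposited 1 table of FPKM values, and it holds 0 columns from samples of another series. GRCz10, HTSeq 0.6.1, TopHat2 2.0.12 and Bowtie2 2.2.3 are listed in the submitters' processing notes with no role. The sources used here do not give the FPKM formula, annotation release or strand, so antisense or near-identical genes may share reads.

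Of 31870 identifiers 26099 (81.9%) had a symbol, spelled after RefSeq GRCz12tu, with capitals for human-form names. Differences were taken on log2(FPKM + 1), with a call at 2-fold and a mean FPKM of at least 1. Whole reads were recovered from FPKM steps, with totals of 7570070 (WT 0 hpf), 6240685 (WT 6 hpf), 7303656 (Mybx1 0 hpf) and 6042830 (Mybx1 6 hpf). The smallest whole reads per gene, 88.8% to 93.3% of each total, are lower limits, and so are lengths. Folds have no pseudocount and carry exact 95% conditional binomial intervals; the ratio of the genotypes' folds carries an exact conditional odds ratio interval. Both cover counting error only, and bounds use 3 reads. The steps were tested on simulated data. Python 3.11.15, pandas 2.3.3, NumPy 2.4.6, SciPy 1.17.1 and Matplotlib 3.10.9 were used.

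Named genes are the 6 per class with the largest difference (for kept, the largest smaller-of-both change) among genes of at least 10 FPKM in a library with a symbol held by 1 identifier, members of 49 lists, and 3 genes on each side of the threshold; some of them are not reported here. Members and lists were chosen with earlier results of these data known. A planned count of promoter motifs was not run, and no sequence or coordinate is given, since no sequence table or GRCz10 annotation was used here.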

Additional observations from a re-analysis of the deposited data

Results flagged for a closer look

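A set of reversed genes was marked because WT and Mybx1 moved past 2-fold in opposite directions. Each group is 1 library, so the difference was not tested. The difference of stage changes on log2(FPKM + 1) was -5.36 for ch25hl1.1, -5.12 for mala.2, -4.84 for dre-mir-15b, -4.74 for si:ch211-195b11.3, -4.69 for zgc:194207 and -4.49 for ndnf, which rose in WT and were lower at 6 than at 0 hpf in Mybx1. For dre-mir-15b the Mybx1 side is 1 read against 0 and gives no firm direction. It was 4.65 for rgs20, 3.05 for sesn1, 2.71 for zgc:103755 and 2.22 for parp12b, which fell in WT and rose in Mybx1.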

How the results depend on the processing

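No paired analysis was possible because the labels give 1 library per group, and no library could be left out. The counts of upward and downward calls and of classes moved by over 1.5 times under these settings. A pseudocount of 0.1 gave 1040 weakened, 152 exceeded and 130 reversed rises, and 16 exceeded and 54 reversed falls. A pseudocount of 5 gave 3699 higher and 1870 lower genes; 144 kept, 158 weakened, 20 exceeded and 8 reversed rises; and 213 kept, 211 weakened, 3 exceeded, 2 reversed and 54 gained falls. Without a filter on the mean there were 341 gained rises. A mean of at least 5 FPKM gave 1623 lower genes, 130 kept, 348 weakened, 54 exceeded, 990 lost and 42 gained rises, and 9 reversed falls. TPM gave 11 exceeded and 28 reversed falls. Median-ratio size factors gave 3766 higher and 4324 lower genes, 55 exceeded, 3137 lost, 63 reversed and 93 gained rises, and 258 weakened, 0 exceeded, 3104 lost and 8 reversed falls. A 4-fold threshold gave 2244 higher and 1361 lower genes, 235 kept, 125 weakened, 11 exceeded, 1100 lost, 1 reversed and 64 gained rises, and 41 kept, 15 weakened, 0 exceeded, 2016 lost, 0 reversed and 14 gained falls. Genes of at least 500 bases, a setting chosen after seeing the data, gave 251 kept rises and 3 exceeded and 11 reversed falls. The cause of these shifts was not tested beyond the fewer or more genes that a filter or threshold leaves.

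Of 44 lists with at least 5 genes counted, 29 stayed on the same side of 2-fold in their median difference under 7 alternatives and 0 past 2-fold turned sign. Under a pseudocount of 5 the medians were -0.92 for maternal linker and variant histones, 0.98 for cell death, -0.79 for heat shock, -0.76 for claudins and -0.43 for Sox. Without a filter they were -0.93 for heat shock, -0.30 for claudins, -0.23 for T-box, -0.25 for homeobox, -0.057 for Sox, -0.43 for Wnt and 0.30 for steroid synthesis. At a mean of at least 5 they were 1.09 for the unfolded protein response, -0.98 for heat shock and -0.042 for Sox. TPM gave -0.75 for the variant histones, 1.17 for the unfolded protein response and -0.90 for heat shock. Median-ratio factors gave -1.60 for maternal activators, 0.81 for microRNA processing, 0.72 for cell death, -1.31 for the spliceosome, -1.22 for histones, -1.23 for retinoic acid and 0.60 for steroid synthesis. At least 500 bases gave 1.09 for the unfolded protein response.

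TPM moved the median difference of all genes by 0.26 and median-ratio factors by -0.53, so a list within that distance of 0 has no direction of its own. Of the 38 reversed rises 33 were also reversed under TPM and 31 under median-ratio factors, and of the 17 reversed falls 17 and 7. Depth limits genes near 0 in the eggs most.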

Other observations

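Some short noncoding RNAs rose in both genotypes. The groups described here were chosen after their values were seen, and they passed the filter largely through the 6 hpf libraries, so their counts are descriptions only. Of 176 small nuclear, nucleolar and Cajal body RNAs matched, 74 passed the filter. Of these 62 rose in WT and 43 of these (69.4%) also rose in Mybx1, against 30.4% of all WT rises. Their median difference of stage changes was -0.78, their median length was 132 bases, and 20 were at 0 in both eggs. rmrp, the RNA of the ribonuclease that processes ribosomal RNA precursors, went from 6206 to 20010 FPKM in WT and 6597 to 13290 in Mybx1. Of 270 microRNA genes matched 20 passed the filter, 17 of them at 0 in both eggs and 10 past 2-fold in Mybx1, most of these on a single read, so no direction is given for them. Of 65 identifiers with no symbol and a length of 75 to 90 bases 51 passed, of which 40 rose in WT, 30 of these (75%) rose in Mybx1 and 6 exceeded the WT rise. In this group and the first, some rises in Mybx1 also rest on 1 read. Examples are ENSDARG00000080744, from 0 to 2.04 FPKM, and SNORA75, from 0 to 2.67. ENSDARG00000089164, classed as exceeded, has 3 reads in each 6 hpf library. Of all WT rises that started below 0.1 FPKM, 50.6% were also rises in Mybx1. The part of length in these values was not tested.

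Some kept rises stayed above WT at both stages. GJA5, a gap junction gene given by its human name, had 6.89 and 34.8 FPKM in the WT and Mybx1 eggs and 258.5 and 757 at 6 hpf, with a difference of stage changes of -0.64. tmem37 had 5.88 and 22.1 FPKM in the eggs and 141 and 495 at 6 hpf, and gusb, the lysosomal glucuronidase, 1.23 and 3.13 in the eggs and 35.0 and 100.4 at 6 hpf. These genes were also named after their values were seen.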
